A study of Homo sapiens with 12 samples.

Results

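The glucocorticoid receptor and 7 genes known as its targets or as part of its local control were followed through TGF-β treatment of lung fibroblasts. They are NR3C1, which encodes the receptor, and FKBP5, TSC22D3, KLF9, DUSP1, HSD11B1, MT2A and ZBTB16. They were picked by name, not by their values, although earlier results for NR3C1 were known. They make up 8 of the 25702 genes in the count table. Of these, 6 passed the filter on low values, at least 10 cpm (counts put on 1 scale across libraries) in at least 6 libraries, which left 9490 genes to test. HSD11B1 and ZBTB16 did not pass.

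RNA was sequenced from WI-38 cells, an established line of normal lung fibroblasts, in 4 conditions with 3 flasks each. Confluent flasks were given 2 ng/mL TGF-β or fresh medium and were harvested on day 1 (D1+ TGF-β and D1), at passages 2 to 3. For day 20 (D20+ TGF-β and D20, passages 5 to 6), 1 treated and 1 untreated flask were used to seed the fresh ones, and the medium with or without TGF-β was renewed every 2 days. All flasks held medium with 10% foetal bovine serum, and no source used here names an added glucocorticoid. The D20 flasks of a treatment thus go back to a single flask, so p-values measure only the spread between sister flasks, and days in culture cannot be told apart from passage and reseeding.

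Glucocorticoids such as cortisol and the inhaled steroids used in asthma act through a receptor that waits in the cytoplasm in a complex with heat shock protein 90 and its partners. On binding hormone it enters the nucleus, where pairs of receptors bind DNA elements made of a pair of facing arms, AGAACA and TGTTCT, with 3 bases between them, and raise nearby genes. It also lowers inflammatory genes by interfering with other factors. In fibroblasts and airway cells FKBP5, TSC22D3, KLF9, DUSP1, MT2A and ZBTB16 are commonly used readouts of that response.

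The elements are shown first, since binding to such elements is how the receptor is known to raise its direct targets. The GRCh37 sequence of each gene with 10000 bases before it was searched on both strands for that 15-base element with up to 1 difference in the arms, and the arms are in capitals. All matches lay in introns, and each line is read on the strand of the gene.
FKBP5, chr6:35569854-35569878, minus strand, no difference: cattcAGAACAgggTGTTCTgtgct
FKBP5, chr6:35581382-35581406, minus strand, 1 difference: aaccaAGATCAcctTGTTCTttttg
TSC22D3, chrX:106987491-106987515, minus strand, 1 difference: atctcAGAACAtagTGTGCTatttc
TSC22D3, chrX:106987863-106987887, minus strand, 1 difference: gccaaAGAAGAcctTGTTCTaagtg
TSC22D3, chrX:107011069-107011093, minus strand, 1 difference: ggcccAGAACAtacTGTGCTgtccc
ZBTB16, chr11:114090883-114090907, plus strand, 1 difference: ataggAGAGCAcatTGTTCTctggg

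The exact FKBP5 element lay 86826 bases after the start of its main transcript, and 202 exact elements were found on the 7 chromosomes that hold the 8 genes. Matches with up to 1 difference occurred there at 0.532 per 100 kb, beside 4.05 in TSC22D3, 1.21 in FKBP5 and 0.481 in ZBTB16. NR3C1, KLF9, DUSP1, HSD11B1 and MT2A held 0. A match is a run of letters and not a measured binding site, and no match says nothing of the receptor.

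The 250 bases before the start of MT2A and DUSP1 are shown because both carry runs of another known element, and both genes also answer to signals other than steroid. Capitals mark TGCNCNC and TGACGT on either strand. TGCNCNC is looser than the core of the metal response element, TGCRCNC (R is A or G), so it also matches runs outside that core. TGACGT is the core of the cyclic AMP response element.
MT2A, chr16:56642246-56642495, plus strand: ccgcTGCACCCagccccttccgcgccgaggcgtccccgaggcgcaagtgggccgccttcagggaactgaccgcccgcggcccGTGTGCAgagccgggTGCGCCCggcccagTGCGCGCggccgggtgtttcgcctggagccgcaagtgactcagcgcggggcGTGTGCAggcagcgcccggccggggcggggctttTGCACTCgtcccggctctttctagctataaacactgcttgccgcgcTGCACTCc
DUSP1, chr5:172198199-172198448, minus strand: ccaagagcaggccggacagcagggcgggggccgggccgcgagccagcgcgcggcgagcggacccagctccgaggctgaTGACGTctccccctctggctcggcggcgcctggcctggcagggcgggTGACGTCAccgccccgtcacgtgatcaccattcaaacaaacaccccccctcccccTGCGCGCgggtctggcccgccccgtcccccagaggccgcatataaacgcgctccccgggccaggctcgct

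With the 50 bases after the start included, MT2A held 8 matches to the looser metal pattern TGCNCNC. At least 1 was present in 61.6% of the 19881 promoter windows of the same length and 8 or more in 0.0604%. The other windows held 4 for TSC22D3, 3 for NR3C1, 2 for ZBTB16, 1 for DUSP1 and 0 for FKBP5, KLF9 and HSD11B1. DUSP1 held 3 matches to the cyclic AMP core, of which a pair are the same palindrome read on both strands, and 9.50% of windows held any. No window of the 8 genes held a single arm AGAACA or TGTTCT, which 10.7% of all windows did, or the paired element with up to 2 differences, which 0.920% did.

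Library totals were between 8674488 and 18286197 counts, after the 4 lanes of each library were summed. Fibroblast markers were abundant (summed 12950 to 20938 cpm over 6 genes) and 4 epithelial markers reached at most 0.585 cpm together. Of all libraries, D1 replicate 2 and D20+ TGF-β replicate 3 were least like their sister flasks. D1 replicate 2 correlated at 0.974 and 0.977 with the other D1 libraries, which correlated at 0.989 with each other, and D20+ TGF-β replicate 3 at 0.980 and 0.981 where its sisters gave 0.996. The D20+ TGF-β replicate also came nearer to the D1+ TGF-β libraries (0.958 to 0.960) than its sisters did (0.930 to 0.938), so values without it are given where a gene rests on it.

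NR3C1 (Entrez 2908, GRCh37 chr5:142657496-142815077, minus strand), the receptor itself, was higher with TGF-β on both days. At D1 its levels were 72.7, 94.1 and 83.6 cpm in replicates 1 to 3, and at D1+ TGF-β they were 112, 116 and 113 cpm. At D20 they were 84.0, 76.7 and 76.6 cpm, and at D20+ TGF-β 93.6, 97.3 and 129 cpm. All treated flasks lay above all untreated flasks of the same day, and the highest D20+ TGF-β value came from replicate 3. The log2 fold change was 0.45 (SE 0.12, edgeR quasi-likelihood test, Benjamini-Hochberg adjusted p = 0.0125) in D1+ TGF-β vs D1, which missed the threshold of 0.01, and 0.43 (SE 0.12, edgeR adjusted p = 0.00905) in D20+ TGF-β vs D20, which passed it. Neither day comparison was called, at -0.10 (edgeR adjusted p = 0.503) with TGF-β and -0.08 (edgeR adjusted p = 0.585) without. The difference of the responses, day 20 minus day 1, was -0.02 (SE 0.16, edgeR adjusted p = 0.958). Without D20+ TGF-β replicate 3 the day comparison with TGF-β was -0.26 (edgeR adjusted p = 0.0369), and without D1 replicate 2 as well it was -0.26 and called (edgeR adjusted p = 0.00458).

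The day 20 call for NR3C1 was a narrow one. Its adjusted p under edgeR lay above 0.01 after leaving out D1 replicate 3 (0.0109), D1+ TGF-β replicate 1, 2 or 3 (0.0126, 0.0125 and 0.0122), D20 replicate 1, 2 or 3 (0.0143, 0.0332 and 0.0340) or D20+ TGF-β replicate 3 (0.0293). The log2 fold change dropped to 0.29 without D20+ TGF-β replicate 3 and was 0.42 to 0.48 in the other fits just listed. The day 1 response was called after leaving out D1 replicate 2 (edgeR adjusted p = 0.00297), D20+ TGF-β replicate 1 (0.00925) or D20+ TGF-β replicate 3 (0.00156). The counts are of the whole gene, so the α and β forms of the receptor, made by alternative splicing, cannot be told apart, and in bulk RNA fewer expressing cells cannot be told from less RNA per cell.

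**Figure D1:**
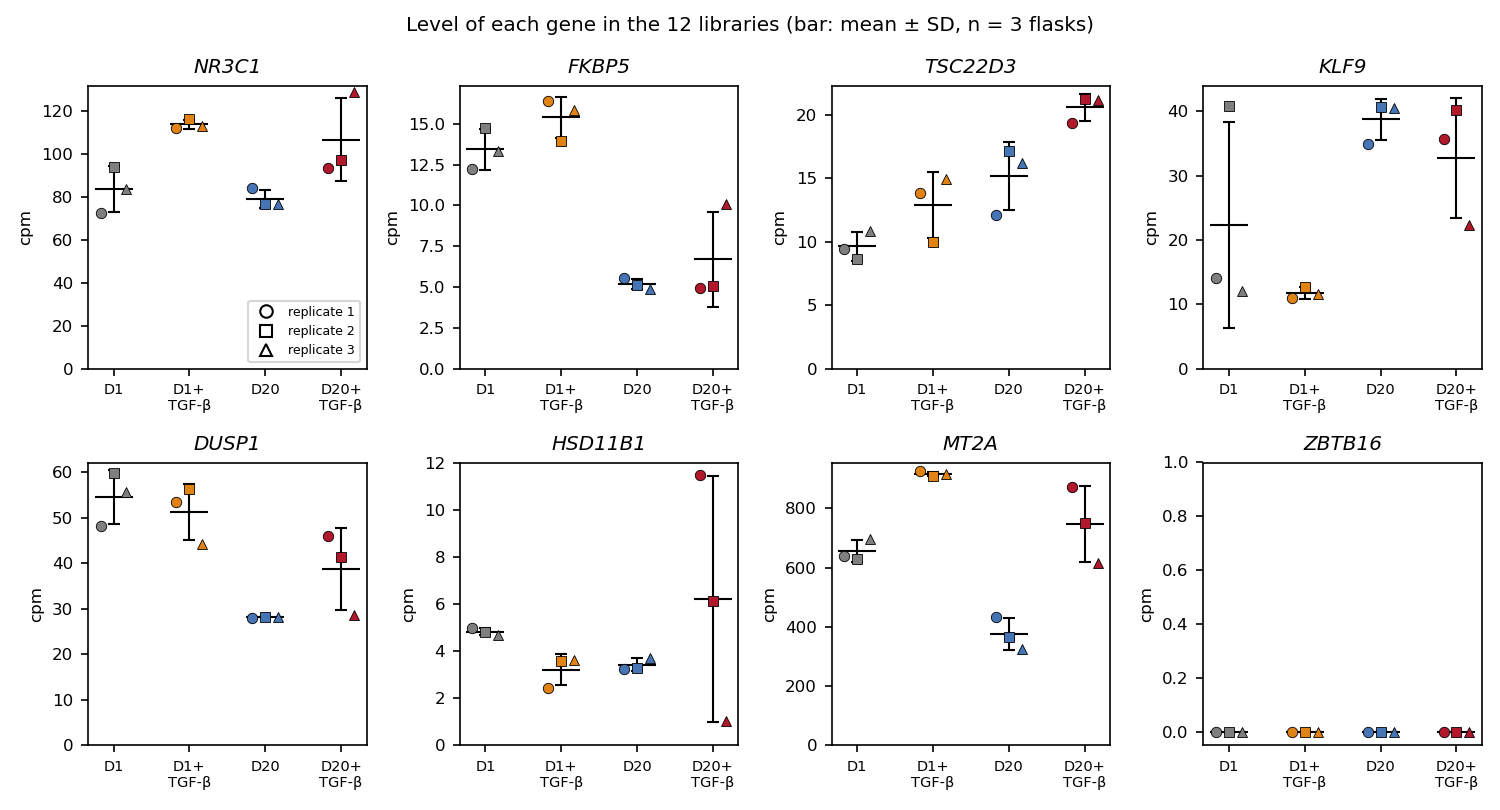
Level in cpm (vertical axis, linear, one scale per gene) of the 8 genes in the 4 conditions; each symbol is 1 flask, its shape gives the replicate number, and bars are means with SD (n = 3). NR3C1 and MT2A lay higher in all treated flasks of a day, FKBP5 fell by day 20, D1 replicate 2 stood out for KLF9 at 40.8 cpm, and ZBTB16 was at 0 in all 12 libraries.

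FKBP5 (Entrez 2289, chr6:35541362-35696360, minus strand) encodes a co-chaperone that binds heat shock protein 90 and lowers the receptor's affinity for hormone, and it is itself induced by the receptor. Its levels were 12.2, 14.8 and 13.3 cpm at D1 and 16.4, 13.9 and 15.8 cpm at D1+ TGF-β. At D20 they were 5.53, 5.15 and 4.87 cpm, and at D20+ TGF-β 4.94, 5.05 and 10.1 cpm. Every day 20 library lay below every day 1 library, and treated and untreated flasks overlapped on both days. FKBP5 fell by 1.38 on the log2 scale in D20 vs D1 (SE 0.21, edgeR adjusted p = 1.13e-04), to 0.383 of its D1 level, and by 1.22 in D20+ TGF-β against D1+ TGF-β (SE 0.21, edgeR adjusted p = 3.24e-04). It passed the filter through the day 1 libraries, as only D20+ TGF-β replicate 3 of day 20 reached 10 cpm. In the edgeR fit without the gene filter the same comparisons gave -1.46 (adjusted p = 7.94e-07) and -1.26 (adjusted p = 7.78e-06). The TGF-β comparisons gave 0.18 on day 1 (edgeR adjusted p = 0.528) and 0.34 on day 20 (edgeR adjusted p = 0.252). The day 20 value rested on D20+ TGF-β replicate 3 and was -0.03 without it.

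The 3 genes whose log2 cpm followed FKBP5 most closely over the 12 libraries were RFC3, a subunit of the replication clamp loader (Pearson r 0.990), HELLS, a chromatin helicase (0.987), and MELK, a mitotic kinase (0.985). RFC3 went from 25.0 ± 3.98 cpm (SD, n = 3) at D1 to 5.81 ± 0.427 at D20, and from 29.5 ± 1.95 at D1+ TGF-β to 8.59 ± 4.44 at D20+ TGF-β. In D20+ TGF-β replicate 3 all 4 were above their sister flasks, with RFC3 at 13.7 cpm, HELLS at 14.7 and MELK at 31.3. These correlations describe libraries that share depth and culture condition, and the part of cell division in the FKBP5 level was not tested.

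**Figure D2:**
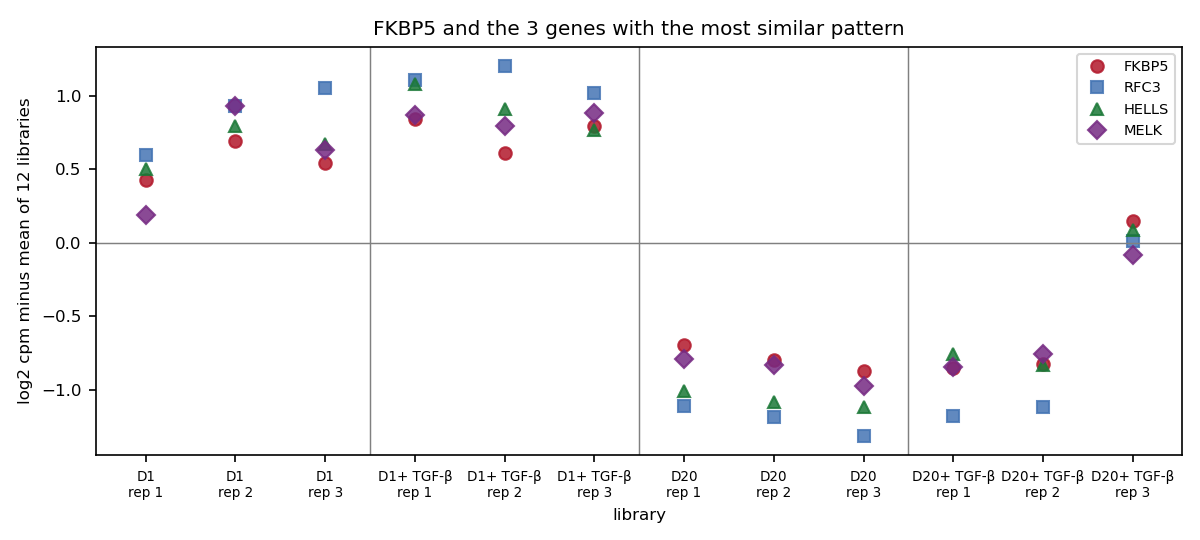
Log2 cpm of FKBP5, RFC3, HELLS and MELK in each library, as the difference from the gene's own mean over the 12 libraries; vertical lines part the conditions. All 4 genes lay above their mean in the 6 day 1 libraries and below it in the D20 libraries, and D20+ TGF-β replicate 3 was the highest of the 6 day 20 libraries for each.

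TSC22D3 (Entrez 1831, chrX:106956451-107020572, minus strand) encodes GILZ, a leucine zipper protein that mediates anti-inflammatory actions of glucocorticoids. It was found at 9.46, 8.62 and 10.9 cpm at D1 and at 13.8, 9.98 and 14.9 cpm at D1+ TGF-β. On day 20 it was at 12.1, 17.2 and 16.2 cpm without and 19.4, 21.2 and 21.1 cpm with TGF-β. Day 20 flasks lay above day 1 flasks of the same treatment without overlap, and on day 20 so did treated over untreated ones. It rose by 0.67 on the log2 scale in D20 vs D1 (SE 0.16, edgeR adjusted p = 0.00369) and by 0.70 in D20+ TGF-β against D1+ TGF-β (SE 0.16, edgeR adjusted p = 0.00241). The TGF-β comparisons, 0.39 on day 1 (edgeR adjusted p = 0.106) and 0.43 on day 20 (edgeR adjusted p = 0.0363), missed the threshold. The edgeR call for D20 vs D1 was lost after leaving out D1 replicate 1 (adjusted p = 0.0122), D1 replicate 2 (0.0123), D20 replicate 2 (0.0229) or D20 replicate 3 (0.0206), and that with TGF-β after leaving out D1+ TGF-β replicate 2 (0.0207). NCBP2L lies on the opposite strand of this gene, and whether reads were counted by strand is not given in the sources used here.

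KLF9 (Entrez 687, chr9:72999520-73029573, minus strand) encodes a zinc finger transcription factor that responds to glucocorticoid and thyroid hormone. At D1 it was at 14.1, 40.8 and 12.0 cpm and at D1+ TGF-β at 10.9, 12.7 and 11.6 cpm. At D20 it was at 35.0, 40.6 and 40.6 cpm and at D20+ TGF-β at 35.8, 40.3 and 22.3 cpm. D1 replicate 2 was as high as the D20 flasks, and D20+ TGF-β replicate 3 was the lowest of the 6 day 20 flasks. KLF9 rose by 1.47 on the log2 scale in D20+ TGF-β against D1+ TGF-β (SE 0.37, edgeR adjusted p = 0.00519). For D20 vs D1 the log2 fold change was 0.77 (SE 0.34, edgeR adjusted p = 0.0727) with all libraries and 1.57 (edgeR adjusted p = 2.05e-05) without D1 replicate 2.

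The KLF9 values for TGF-β each rested on a single flask. D1+ TGF-β vs D1 gave -0.94 (SE 0.38, edgeR adjusted p = 0.0871), and -0.13 (edgeR adjusted p = 0.681) without D1 replicate 2. D20+ TGF-β vs D20 gave -0.24 (edgeR adjusted p = 0.595), and -0.018 (edgeR adjusted p = 0.973) without D20+ TGF-β replicate 3. Leaving out D1+ TGF-β replicate 1, 2 or 3 or D20+ TGF-β replicate 1 or 2 moved the edgeR adjusted p for D20+ TGF-β against D1+ TGF-β to between 0.0179 and 0.0219, with all 12 left-out fits positive.

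DUSP1 (Entrez 1843, chr5:172195099-172198198, minus strand) encodes a phosphatase that switches off p38 and JNK kinases. It was at 48.04, 59.8 and 55.7 cpm at D1, and at 53.3, 56.2 and 44.2 cpm at D1+ TGF-β. The D20 flasks were close together at 28.0, 28.2 and 28.2 cpm, and the D20+ TGF-β flasks were at 45.9, 41.4 and 28.7 cpm. The D20 flasks were below all others, with D20+ TGF-β replicate 3 just above them. DUSP1 fell by 0.96 on the log2 scale in D20 vs D1 (SE 0.15, edgeR adjusted p = 1.19e-04), to 0.516 of its level. D20+ TGF-β vs D20 gave 0.47 (SE 0.15, edgeR adjusted p = 0.0217), and without D20+ TGF-β replicate 3 the same comparison was called (edgeR adjusted p = 5.06e-04). D20+ TGF-β against D1+ TGF-β gave -0.40 (edgeR adjusted p = 0.0327) and D1+ TGF-β vs D1 gave -0.09 (edgeR adjusted p = 0.707). An unnamed gene is annotated on the opposite strand.

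MT2A (Entrez 4502, chr16:56642496-56643409, plus strand) encodes a metallothionein, a small protein that binds zinc and other metals, and it is induced by metals as well as by glucocorticoids. It had 639, 630 and 697 cpm at D1 and 925, 909 and 916 cpm at D1+ TGF-β. At D20 it had 433, 364.5 and 325.5 cpm and at D20+ TGF-β 872, 750.2 and 615 cpm. Treated flasks lay above untreated ones on both days without overlap. MT2A rose by 0.99 on the log2 scale, 1.99-fold, in D20+ TGF-β vs D20 (SE 0.12, edgeR adjusted p = 2.79e-05), and it fell by 0.81 in D20 vs D1 (SE 0.12, edgeR adjusted p = 1.02e-04). On day 1 the log2 fold change was 0.48 (SE 0.12, edgeR adjusted p = 0.0101), which missed the threshold of 0.01 narrowly, and leaving out D20 replicate 1 (0.00736) or 3 (0.00905) or D20+ TGF-β replicate 1 (0.00527) or 3 (0.00201) gave adjusted p-values under it. D20+ TGF-β against D1+ TGF-β gave -0.30 (edgeR adjusted p = 0.0540), although the flasks did not overlap.

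The response of MT2A was larger on day 20 than on day 1 by 0.51 (SE 0.17, edgeR adjusted p = 0.0472), which did not pass, and that of DUSP1 by 0.55 (SE 0.21, edgeR adjusted p = 0.0721). Without D20+ TGF-β replicate 3 both differences were called, at adjusted p = 0.00639 for MT2A and 0.00358 for DUSP1 under edgeR. Runs of 29 to 65 bases of the MT2A transcript recur in MT1 transcripts (65 in MT1G, 63 in MT1X), so reads may have been shared between them and the level of each metallothionein is uncertain.

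HSD11B1 (Entrez 3290, chr1:209859523-209908294, plus strand) encodes the enzyme that turns inactive cortisone into cortisol inside cells. Its counts were 59, 74 and 56 at D1 and 21, 64 and 31 at D1+ TGF-β, or 4.98, 4.83 and 4.68 cpm and 2.44, 3.57 and 3.61 cpm. At D20 the counts were 34, 44 and 62 (3.24, 3.28 and 3.73 cpm). In D20+ TGF-β they were 205, 61 and 11, or 11.5, 6.16 and 1.03 cpm, so this condition held both the highest and the lowest level of all 12 libraries. In the edgeR fit without the gene filter (20434 genes) D20+ TGF-β vs D20 was 0.95 on the log2 scale (SE 0.37; adjusted p = 0.0622), and without replicate 3 it was 1.42 (adjusted p = 2.99e-08). The difference of the responses was 1.53 (SE 0.54, edgeR adjusted p = 0.0690) and 2.00 (adjusted p = 1.40e-07) without that replicate. The fit without replicate 3 was not planned and removes the flask with the lowest level, so its p-values are no independent check of a rise. The flasks that remained, at 11.5 and 6.16 cpm, were also far apart. On day 1 the treated flasks lay below the untreated ones, with -0.58 (SE 0.40, edgeR adjusted p = 0.422). HSD11B1-AS1 overlaps on the opposite strand.

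ZBTB16 (Entrez 7704, chr11:113929763-114127487, plus strand), which encodes the zinc finger repressor PLZF and is among the genes most strongly induced by glucocorticoids in many cell types, had 0 counts in all 12 libraries. A count of 0 allows up to 3 counts, or 0.0196 cpm over all 153249561 counts and 0.164 to 0.346 cpm in a single library, for counting error only. No fold change can be given for it.

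**Figure D3:**
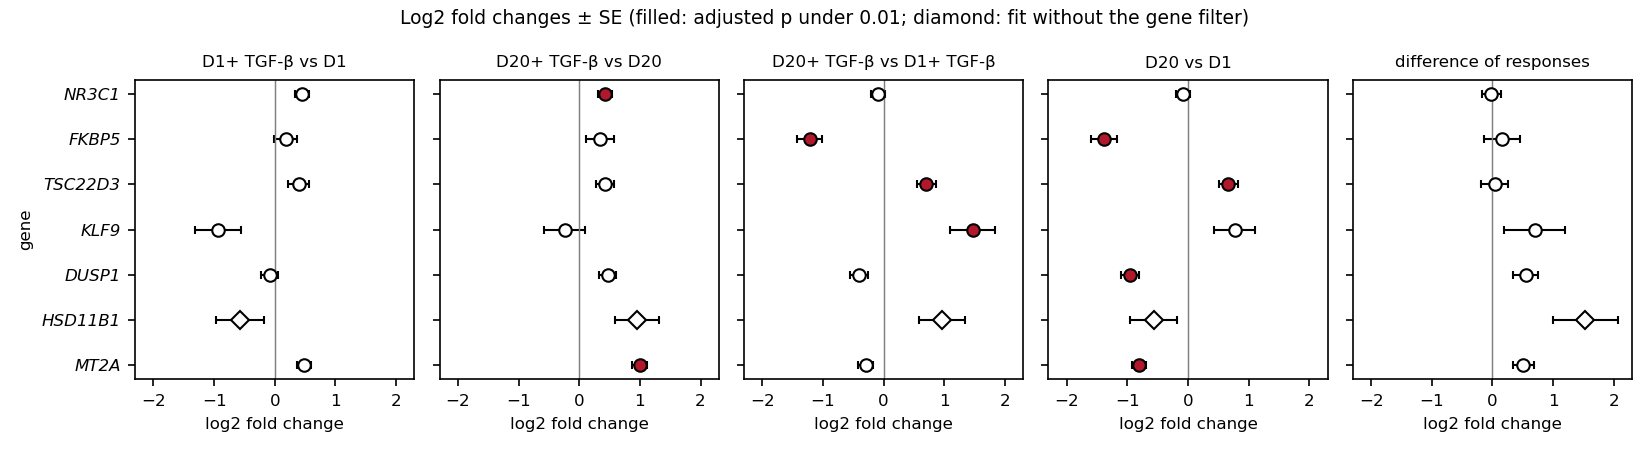
Log2 fold change (horizontal axis) with SE of the 7 genes with counts in 4 comparisons and in the difference of the TGF-β responses (day 20 minus day 1); filled symbols have an edgeR adjusted p under 0.01, and the diamonds for HSD11B1 come from the fit without the gene filter. Called changes were up to 1.47 (KLF9) and down to -1.38 (FKBP5), and no symbol is filled for D1+ TGF-β vs D1 or for the difference.

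By count, 0 of the 6 tested genes were called in D1+ TGF-β vs D1, where 13.4% of all tested genes were (6.89% higher, 6.5% lower). In D20+ TGF-β vs D20, 2 were called, both higher (MT2A and NR3C1), beside 27.5% of all genes (12.8% higher, 14.7% lower). In D20+ TGF-β against D1+ TGF-β, 3 were called (KLF9 and TSC22D3 higher, FKBP5 lower), beside 34.8% (17.2% higher, 17.7% lower). In D20 vs D1, 4 were called (TSC22D3 higher, DUSP1, FKBP5 and MT2A lower), beside 36.4% (18.9% higher, 17.6% lower). The difference of the responses was called for 0 of 6, beside 10.4%. With so few genes these shares are not set apart from the background.

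In the order of these 4 comparisons and the difference, the median log2 fold changes of the 6 were 0.29, 0.43, -0.20, -0.44 and 0.34, where all tested genes had -0.02, 0.01, 0.01, 0.01 and 0.02. At an unadjusted p under 0.05, 4 of the 6 passed in the day 1 comparison (NR3C1, TSC22D3 and MT2A higher, KLF9 lower). For the difference 2 passed (DUSP1 and MT2A, both positive). DESeq2 called 2 on day 1 (MT2A and NR3C1, both higher), 3 on day 20 (these and DUSP1, all higher) and 0 for the difference. No share of all tested genes is given for the unadjusted p or for DESeq2, here or in the lists below. These counts thus have no background beside them. The day comparisons share no library with each other, but each shares libraries with both TGF-β comparisons, so these values are given side by side only.

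**Figure D4:**
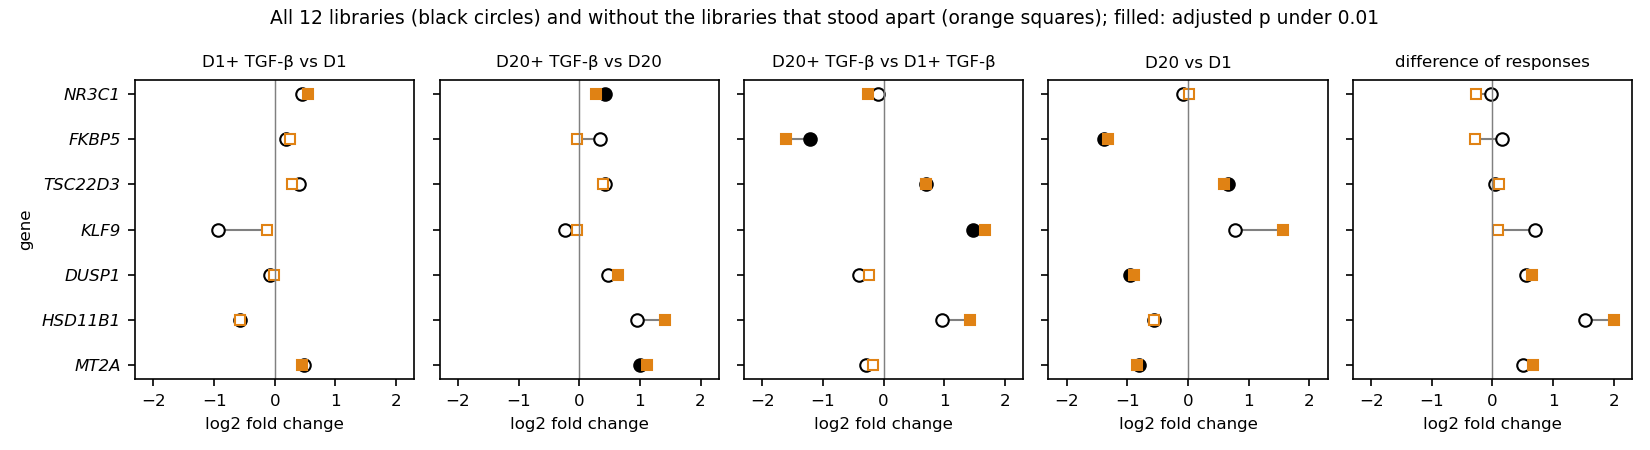
Log2 fold changes of the same genes with all 12 libraries (black circles) and without those that stood apart (orange squares: D1 replicate 2 and D20+ TGF-β replicate 3 left out; for HSD11B1 only the latter); filled symbols have an edgeR adjusted p under 0.01. KLF9 in D20 vs D1 moved from 0.77 to 1.57 and HSD11B1 in D20+ TGF-β vs D20 from 0.95 to 1.42, while FKBP5 in D20 vs D1 went from -1.38 to -1.31.

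Levels of different genes were compared as mean cpm per kb of the main transcript. MT2A was far above the rest in all conditions, from 934 ± 136 at D20 to 2286 ± 19.6 at D1+ TGF-β. DUSP1 followed at 27.1 ± 2.96 at D1 and 14.0 ± 0.0499 at D20, and NR3C1 at 12.3 ± 1.58 and 11.7 ± 0.624. KLF9 and TSC22D3, at 7.45 ± 0.626 and 6.67 ± 1.18 at D20, did not differ beyond their spread, and neither did FKBP5 and HSD11B1 at D1 (3.58 ± 0.336 and 3.49 ± 0.108). By D20+ TGF-β, NR3C1 at 15.7 ± 2.86 lay within the spread of DUSP1 at 19.2 ± 4.45, and TSC22D3 at 9.07 ± 0.456 stood above FKBP5 at 1.78 ± 0.779. The nearness of NR3C1 and DUSP1 there rested on replicate 3, with NR3C1 at its highest (129 cpm) and DUSP1 at its lowest (28.7 cpm). In replicates 1 and 2 NR3C1 was at 93.6 and 97.3 cpm and DUSP1 at 45.9 and 41.4 cpm. These cpm are not divided by transcript length, which is 6778 bases for NR3C1 and 2013 for DUSP1. They show how each gene varied between flasks and do not rank NR3C1 against DUSP1.

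Of the genes most like the others over the 12 libraries, NR3C1 was followed by SYTL5 (Pearson r 0.940), SLC8A1, a sodium-calcium exchanger (0.938), and BCAT1, an aminotransferase of branched-chain amino acids (0.936). BCAT1 had means of 467, 858, 421 and 706 cpm at D1 and D1+ TGF-β and then on day 20 without and with TGF-β. TSC22D3 was closest to FBXW8 (0.919), CCPG1 (0.914) and GOLM1 (0.913), and KLF9 to ST5 (0.972), PTGS1, which encodes cyclooxygenase 1 (0.969), and PRKAR1A (0.967). DUSP1 was closest to DDX10 (0.962), BTG3 (0.948) and G0S2 (0.942), and MT2A was followed by SNHG16 (0.966) and FAM196B (0.950). G0S2 had 16.1, 16.3, 2.93 and 11.3 cpm in the same order.

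All 14 listed chaperones and co-chaperones of the receptor were tested, and most calls between the days were lower. In D20 vs D1 10 were lower, 4 were not called and 0 were higher, and in D20+ TGF-β against D1+ TGF-β 9 were lower, 1 was higher and 4 were not called, where 17.6% and 17.7% of all genes were lower. The median log2 fold changes were -0.37 and -0.34. HSP90AB1, the constitutive form of heat shock protein 90, fell by 0.65 in D20 vs D1 (962 to 614 cpm, edgeR adjusted p = 5.43e-06), and STIP1, which hands clients from HSP70 to HSP90, by 0.61 (198 to 129 cpm, edgeR adjusted p = 5.11e-06). HSPA8 and PPP5C, a phosphatase of the complex, fell by 0.53 and 0.50. With TGF-β, HSP90AA1, the inducible form, fell by 0.58 between the days (1581 to 1058 cpm, edgeR adjusted p = 3.95e-05). With TGF-β 0 of the list were called on day 1 (3 at an unadjusted p under 0.05, 0 with DESeq2) and 1 on day 20, CDC37, which fell by 0.26 (edgeR adjusted p = 0.00822). The medians there were -0.03 and 0.08. Without D1 replicate 2 and D20+ TGF-β replicate 3, 4 were lower on day 1, and on day 20 2 were lower and 1 higher. Leaving out this pair raised the calls over all genes from 1271 to 2648 on day 1 with TGF-β and from 2609 to 3429 on day 20. Between the days they rose from 3457 to 4647 without TGF-β and from 3307 to 4514 with it. Larger counts without the pair, here and in the lists below, are therefore not particular to a list.

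Of 13 tested coregulators, which the receptor recruits to DNA, 1 was higher on day 1 with TGF-β and 2 on day 20, with 0 lower in both and medians of 0.10 and 0.04. Among all tested genes 6.89% and 12.8% were higher in these comparisons, and 6.5% and 14.7% lower. NRIP1, a corepressor, rose by 0.68 in D1+ TGF-β vs D1 (41.8 to 66.6 cpm, edgeR adjusted p = 9.04e-05). MED1 and HDAC2 rose by 0.31 and 0.29 in D20+ TGF-β vs D20. In D20 vs D1 2 were higher, NCOA2 by 0.51 and NCOA1 by 0.41, and 2 lower, MED1 and HDAC2. In D20+ TGF-β against D1+ TGF-β NCOA2 was higher by 0.54 and NRIP1 lower, at -0.61. The medians between the days were 0.14 without and -0.04 with TGF-β. Among all tested genes 18.9% were higher and 17.6% lower without TGF-β, and 17.2% and 17.7% with it. The counts of this list are not set apart from these shares. Without the same pair of libraries 5 were higher on day 1, and in D20 vs D1 5 were higher and 3 lower. Calls over all genes rose there as well, to 2648 and 4647.

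Among genes of corticosteroid metabolism 5 of 10 were tested. The steroid reductases AKR1C1 and AKR1C2 were called lower with TGF-β on both days, and SRD5A1 on day 20 only. On day 1 2 were lower and on day 20 3, with 0 higher in either and medians of -0.37 and -0.81. Among all tested genes 6.5% and 14.7% were lower. Without the gene filter, with 9 of the list tested, 1 was higher on day 20. AKR1C1 fell by 1.40 on day 1 (39.3 to 15.01 cpm, edgeR adjusted p = 0.00473) and fell by 1.11 on day 20 (82.5 to 37.9 cpm, edgeR adjusted p = 0.00512), and AKR1C2 fell by 1.44 and fell by 1.37 in the same order. These near-identical paralogs may share reads. SRD5A1, a steroid 5-alpha reductase, fell by 0.81 on day 20 (40.0 to 22.9 cpm, edgeR adjusted p = 1.94e-04). Between the days 4 were higher without TGF-β and 3 with it (medians 0.55 and 0.67), beside 18.9% and 17.2% of all tested genes. Among them was H6PD, which supplies the cofactor for the HSD11B1 reaction (132 to 192 cpm at D1 and D20, and 124 to 197 cpm with TGF-β).

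Of 26 other genes known to be induced by glucocorticoids, 18 were tested, and they moved both ways with TGF-β, with 5 higher and 5 lower on day 1 and 6 higher and 3 lower on day 20 (medians -0.25 and 0.02). Among all tested genes 6.89% were higher and 6.5% lower on day 1, and 12.8% and 14.7% on day 20. DDIT4, an inhibitor of mTOR signalling, rose by 1.23 on day 1 (13.6 to 31.9 cpm, edgeR adjusted p = 1.82e-05) and by 1.44 on day 20 (22.0 to 59.9 cpm, edgeR adjusted p = 9.28e-07). ZFP36, which destabilises inflammatory mRNAs, fell by 1.48 and 1.41 (20.6 to 7.24 and 28.2 to 10.54 cpm). SLC19A2, a thiamine transporter, rose by 0.93 and 1.13. In D20+ TGF-β against D1+ TGF-β 12 of 18 rose and 4 fell, with a median of 0.89, beside 17.2% and 17.7% of all tested genes. CEBPD rose by 2.74 (9.92 ± 1.21 to 64.9 ± 28.6 cpm, edgeR adjusted p = 3.60e-05). In D20 vs D1 6 were higher, GLUL by 0.52 and CEBPD by 1.39 among them, and 1, SLC19A2, was lower, with a median of 0.33. Among all tested genes 18.9% were higher and 17.6% lower there. Without the pair of libraries named above, 8 were higher and 6 lower in D20+ TGF-β vs D20.

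Of 15 genes known to be repressed by glucocorticoids only 6 passed the filter. In D1+ TGF-β vs D1 edgeR called 0 of them (3 at an unadjusted p under 0.05, 1 with DESeq2), with a median of -0.61, and 2 were higher in D20+ TGF-β vs D20, the collagenase MMP1 by 2.42 (226 to 1207 cpm, edgeR adjusted p = 2.76e-06) and the cytokine IL11 by 1.48 (5.64 to 15.4 cpm, edgeR adjusted p = 7.09e-04). In D20 vs D1 ICAM1 was higher by 1.41 and MMP1 and IL11 lower. In D20+ TGF-β against D1+ TGF-β 3 were higher (CCL2 by 3.10, MMP1 by 1.47 and ICAM1 by 1.39) and IL11 lower. The CCL2 level of 34.6 ± 29.3 cpm at D20+ TGF-β had an SD close to its mean. The medians were 0.51 in D20+ TGF-β vs D20, -0.38 in D20 vs D1 and 1.05 in the comparison of treated flasks. Among all tested genes 12.8%, 18.9% and 17.2% were higher in the same order, and 14.7%, 17.6% and 17.7% lower. On day 1 with TGF-β 13.4% of all tested genes were called. Without the pair of libraries 7 were tested, of which 5 were higher and 1 lower in D20+ TGF-β vs D20, 6 higher and 1 lower between treated flasks, and 4 higher and 2 lower in D20 vs D1.

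Beside MT2A, 5 of 11 metallothionein and zinc genes were tested. MT1E rose with TGF-β by 0.56 on day 1 (46.1 to 67.8 cpm, edgeR adjusted p = 0.00540) and by 0.95 on day 20 (41.3 to 79.5 cpm, edgeR adjusted p = 4.74e-05). SLC39A14, a zinc importer, rose by 0.87 and 1.74, while SLC30A1, a zinc exporter, fell by 0.73 on day 20 (37.05 to 22.2 cpm). In D20+ TGF-β against D1+ TGF-β MT1L was the 1 gene called, lower, and in D20 vs D1 SLC39A14 was, also lower. The medians were 0.33 on day 1 and -0.04 on day 20 with TGF-β, and 0.08 and -0.04 between the days. Among all tested genes 6.89% were higher and 6.5% lower with TGF-β on day 1, and 12.8% and 14.7% on day 20. Between the days 17.7% were lower with TGF-β and 17.6% without it. Without the pair of libraries 3 genes were higher on day 1, and in D20 vs D1 1 was higher and 1 lower.

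Relatives of the followed genes were counted in the same way. Of 10 tested genes of the DUSP, KLF and TSC22D families, 2 were lower in D1+ TGF-β vs D1, 3 in D20+ TGF-β vs D20, 4 in D20+ TGF-β against D1+ TGF-β and 3 in D20 vs D1, with 0 higher and medians of -0.21, -0.15, -0.24 and -0.13. The shares of all genes called lower were 6.5%, 14.7%, 17.7% and 17.6% in the same order, and these counts are not set apart from them. Without the pair of libraries 1 relative was higher in D20 vs D1, and without the gene filter, with 13 tested, 1 was higher in D20+ TGF-β vs D20 and 1 between treated flasks. DUSP6 and TSC22D4 fell by 0.42 and 0.58 on day 1, and TSC22D2, DUSP10 and KLF6 by 0.80, 0.62 and 0.58 on day 20. DUSP5 fell by 0.74 in D20 vs D1 (62.9 to 37.6 cpm, edgeR adjusted p = 1.14e-04), and KLF6 and TSC22D2 were also lower in the comparison of treated flasks.

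**Figure D5:**
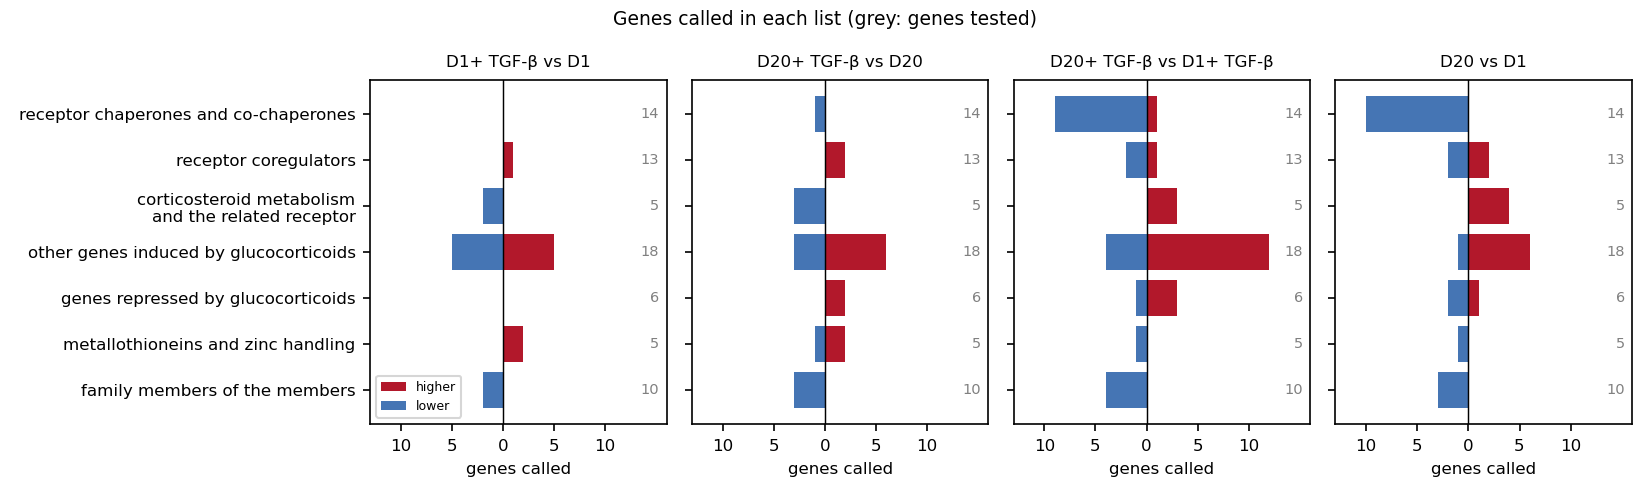
Number of genes called at an edgeR adjusted p under 0.01 in each list, higher to the right and lower to the left, in 4 comparisons; grey numbers give the genes tested. The longest bars are the 10 and 9 lower chaperone genes of the day comparisons and the 12 higher induced genes of D20+ TGF-β against D1+ TGF-β.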

How the data were processed

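The authors trimmed paired reads with Trimmomatic, mapped them to hg19 (GRCh37) with Rsubread and deposited raw counts per gene and lane. They also deposited log2 cpm for 9412 genes, used here only in an alternative. The counting program, annotation and use of strand are not given in the sources used here.

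The 4 lanes of each library were summed, and 0 of 48 columns were unassigned. Groups followed the labels. Genes that reached 10 cpm in 6 or more of the 12 libraries were tested in R 4.3.3 with edgeR 4.0.16 (TMM factors, quasi-likelihood F-test, 1 mean per condition over 12 libraries, Benjamini-Hochberg over 9490 genes, threshold 0.01). Cpm are TMM-scaled. The common biological coefficient of variation was 9.35%. The code was tested on simulated data. Alternatives used limma 3.58.1 and DESeq2 1.42.0, other scalings and filters, and libraries left out.

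The 8 genes and the lists were chosen with earlier results of these data known. Those results were for NR3C1 and for genes of other topics. List genes are named by rule, up to 4 called genes with the smallest p per comparison, and likeness is the Pearson correlation of log2 cpm (prior count 2), the top 3 per gene. Some results that meet these rules are not reported here. GADD45B is named for its difference of responses and G0S2 and BCAT1 levels were chosen after they were seen. Sequences and positions are from GRCh37 and its GENCODE annotation; the search of gene bodies was added after seeing the data. Replicate numbers did not pair the samples.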

Additional observations from a re-analysis of the deposited data

Results flagged for a closer look

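No member differed in its TGF-β response between the days under edgeR at an adjusted p of 0.01, and 8 genes of the lists around the receptor did. Of all tested genes 10.4% were called. By list, 0 of 14 chaperones, 1 of 13 coregulators, 0 of 5 metabolism genes and 1 of 6 repressed genes were called. So were 1 of 5 metallothionein and zinc genes and 1 of 10 relatives, and of 18 induced genes 2 were higher and 2 lower. These counts are not set apart from the share of all genes. The values are differences of log2 responses, day 20 minus day 1, with all libraries. NRIP1 gave -0.77 (edgeR adjusted p = 7.57e-04), with responses of 0.68 on day 1 and -0.10 on day 20. ERRFI1, a feedback inhibitor of the EGF receptor, gave -0.70 (edgeR adjusted p = 0.00211; 0.81 and 0.10), and GADD45B, a stress protein, -1.03 (edgeR adjusted p = 0.00373; 0.84 and -0.19). GLUL, glutamine synthetase, gave 0.50 (edgeR adjusted p = 0.00745; -0.54 and -0.04), and IRS2, an insulin receptor substrate, 0.90 (edgeR adjusted p = 5.09e-04; -0.07 and 0.82). MMP1 gave 2.85 (edgeR adjusted p = 5.37e-05; -0.44 and 2.42). MT1L gave -0.72 (edgeR adjusted p = 0.00606; 0.33 and -0.40) and TSC22D2 -0.67 (edgeR adjusted p = 0.00387; -0.13 and -0.80). All 8 passed the same test without D1 replicate 2 and D20+ TGF-β replicate 3, with edgeR adjusted p-values of at most 0.00316. That fit was not planned and is no independent check, since the 8 were picked from these same data. It also raised the calls over all genes for the difference from 985 to 2247.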

How the results depend on the processing

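Over 35 values of the members and 24 alternatives, 13 values kept direction and call throughout (HSD11B1 had 2 alternatives). FKBP5 in both day comparisons, DUSP1 in D20 vs D1, and MT2A in D20+ TGF-β vs D20 and D20 vs D1 were called under all 22 alternatives run for them. The number of members called in D1+ TGF-β vs D1, 0 in the report, was 1 with RLE factors, filterByExpr or only the libraries of the comparison, and 2 with DESeq2, no gene filter, an adjusted p under 0.05, or both libraries that stood apart left out. For D20+ TGF-β vs D20, 2 in the report, it was 1 with limma-voom, limma on the deposited log2 values or only the libraries of the comparison, 3 (DUSP1 added) with DESeq2, no gene filter or both libraries left out, and 4 at an adjusted p under 0.05. The difference of responses, 0 in the report, had 1 at an adjusted p under 0.05 and 2 without both libraries. With single libraries left out the counts were 0 to 2, 1 to 2, 1 to 3 (1 without D1+ TGF-β replicate 2) and, for the difference, 0 to 2 (2 without D20+ TGF-β replicate 3). With replicate numbers as a block, 1 member (MT2A) was called in D1+ TGF-β vs D1 and 1 (MT2A) in D20+ TGF-β vs D20. All-gene calls went from 1271 to 1072 and from 2609 to 2379. Deviations of log2 cpm from the group mean correlated at -0.22 to 0.32 between same-numbered samples of different groups. Between differently numbered ones they correlated at -0.36 to 0.24.

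Directions changed only for values that were not called. Without both libraries NR3C1 in D20 vs D1 was 0.013, FKBP5 in D20+ TGF-β vs D20 -0.044, and the FKBP5 difference -0.29. The NR3C1 difference was 0.091 without composition factors, which moved the median of all genes to 0.12, and 0.019 without the gene filter. Leaving out single libraries gave -0.17 to 0.013 for NR3C1 in D20 vs D1, -0.16 to 0.075 for its difference, -0.029 to 0.57 for FKBP5 in D20+ TGF-β vs D20 and -0.21 to 0.38 for its difference, -0.15 to 0.17 for the TSC22D3 difference, -0.10 to 1.00 for the KLF9 difference, and -0.16 to 0.014 for DUSP1 in D1+ TGF-β vs D1. The cause was not tested. HSD11B1 rested on 11 to 205 counts a library, and its precision is limited accordingly.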
